A study of Mus musculus with 8 samples.

Results

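Hemoglobin and red cell genes were examined in mouse lung RNA as a measure of the blood carried in each RNA-seq library. Of 52636 genes counted, 7 were taken by name: the adult alpha chain genes Hba-a1 and Hba-a2, the adult beta chain genes Hbb-bs and Hbb-bt, and 3 other red cell genes, Alas2, Slc4a1 and Bpgm. All 7 passed the filter on low counts. The 8 libraries came from lungs of male wild-type C57BL/6 mice in 4 groups of 2. Diets began at 8 weeks of age and were either a control diet without drug or the same diet with 2% TJ-41 (hochuekkito), an extract of mixed medicinal herbs used in Japanese Kampo medicine. At 10 weeks the mice of the COPD model (COPD mice) were given porcine pancreatic elastase (PPE), an enzyme that breaks down alveolar walls, and from 12 weeks lipopolysaccharide (LPS), a bacterial cell wall component that inflames the airways. Control mice received phosphate-buffered saline (PBS) in place of both. The groups were thus control mice fed the control diet, control mice fed TJ-41, COPD mice fed the control diet and COPD mice fed TJ-41. The labels do not say that the 2 libraries of a group came from separate mice, so the p-values given here measure only the spread between libraries, which may be technical. The elastase and LPS were both given to every COPD mouse, so their effects cannot be told apart. The day of lung collection, and whether blood was flushed from the lungs before RNA was extracted, are not given in the sources used here.

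Hemoglobin is a tetramer of alpha and beta chains, each holding an iron-containing heme that binds oxygen. In the adult mouse the chains are made by neighbouring duplicated genes, transcribed at very high levels in the red cell precursors of the bone marrow and spleen under factors such as GATA1 and KLF1. Mature red cells have no nucleus, but young red cells (reticulocytes) in the circulation still carry globin mRNA, and globin counts in a tissue library are commonly read as a measure of its blood content. Alas2 encodes the red cell form of the first enzyme of heme synthesis. Slc4a1 encodes band 3, the anion exchanger of the red cell membrane, and a shorter form is made in the kidney. Bpgm encodes bisphosphoglycerate mutase, which makes the 2,3-bisphosphoglycerate that lowers the oxygen affinity of hemoglobin, and it is also expressed at lower levels outside red cells. In bulk RNA, fewer cells of a type and less RNA per cell cannot be told apart.

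Promoters of the globin genes, of Alas2 and of Bpgm are shown because these genes were high and low in much the same libraries, as described further on. Each sequence is the 250 bases before the RefSeq start site in GRCm38.p6, and matches to motifs of red cell promoters are in capitals. The motifs searched on both strands were a GATA site (AGATAA or AGATAG or TGATAA or TGATAG), the CACCC box (CCNCNCCC), a CCAAT box (CCAAT) and a TATA box (TATAA or CATAAA). Overlapping or adjoining matches run together in the capitals. GENCODE release M21 places the start of some transcripts of these genes inside the windows.
Hba-a1, chr11:32283422-32283671, + strand: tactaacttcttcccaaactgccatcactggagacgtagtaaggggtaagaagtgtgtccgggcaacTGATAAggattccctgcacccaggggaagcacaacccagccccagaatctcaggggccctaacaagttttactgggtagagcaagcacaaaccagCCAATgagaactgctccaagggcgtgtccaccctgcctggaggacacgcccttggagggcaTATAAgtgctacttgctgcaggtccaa
Hbb-bs, chr7:103827929-103828178, - strand: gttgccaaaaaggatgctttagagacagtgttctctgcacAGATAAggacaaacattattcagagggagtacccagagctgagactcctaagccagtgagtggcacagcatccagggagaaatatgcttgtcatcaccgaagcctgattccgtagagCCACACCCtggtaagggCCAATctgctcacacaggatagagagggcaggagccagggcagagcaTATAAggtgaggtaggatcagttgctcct
Hbb-bt, chr7:103813924-103814173, - strand: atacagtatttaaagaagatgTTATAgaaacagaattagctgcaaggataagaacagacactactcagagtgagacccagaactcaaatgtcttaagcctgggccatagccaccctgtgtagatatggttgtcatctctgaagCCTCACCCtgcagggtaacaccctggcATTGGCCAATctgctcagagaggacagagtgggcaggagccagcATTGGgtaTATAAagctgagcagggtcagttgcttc
Alas2, chrX:150547167-150547416, + strand: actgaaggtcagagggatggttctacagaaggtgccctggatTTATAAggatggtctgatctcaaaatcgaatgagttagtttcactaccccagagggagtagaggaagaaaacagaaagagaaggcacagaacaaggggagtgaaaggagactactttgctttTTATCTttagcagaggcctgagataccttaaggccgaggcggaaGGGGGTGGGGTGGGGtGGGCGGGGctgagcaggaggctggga
Bpgm, chr6:34476106-34476355, + strand: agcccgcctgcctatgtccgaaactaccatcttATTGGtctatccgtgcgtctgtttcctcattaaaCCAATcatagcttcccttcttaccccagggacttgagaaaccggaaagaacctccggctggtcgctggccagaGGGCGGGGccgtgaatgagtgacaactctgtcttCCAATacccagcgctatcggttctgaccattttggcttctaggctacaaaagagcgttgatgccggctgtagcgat
The window of Hba-a2 (chr11:32296242-32296491) matched that of Hba-a1 at all 247 aligned bases and is therefore not printed. The windows of Hbb-bs and Hbb-bt were identical at 178 of 243 aligned bases (73.3%). Of the 6 members in the promoter table, a GATA site was found in 4 (Hba-a1, Hba-a2, Hbb-bs and Alas2), against 27.1% of 27025 mouse promoters of the same length. A match to the CACCC box pattern was found in 4 (Hbb-bs, Hbb-bt, Alas2 and Bpgm), against 45.6% of those promoters. In Bpgm that match was GGGCGGGG, which does not hold the letters CACCC on either strand. A CCAAT box was found in 5, all but Alas2, against 34.5%, and TATA box letters in 5, all but Bpgm, against 30.5%. In Alas2 these letters lay only between bases -208 and -203, far from the start site. In Hbb-bs the CACCC box lay at bases -93 to -86, the CCAAT box at -76 to -72 and the TATA box at -29 to -25, counted back from the start site. These matches describe letters in the windows, and binding to them was not measured. Slc4a1 is not in the promoter table used.

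The globin genes are so alike that the split of counts within a pair is uncertain. The coding sequences of Hba-a1 and Hba-a2 differed at 1 of 429 bases (C381T, counted from the first base of the start codon), and those of Hbb-bs and Hbb-bt at 1 of 444 bases (C417T). The stretches of 41 bases around these differences are shown with the differing base in capitals.
Hba-a1: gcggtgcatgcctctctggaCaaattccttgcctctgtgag
Hba-a2: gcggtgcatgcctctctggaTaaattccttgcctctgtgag
Hbb-bs: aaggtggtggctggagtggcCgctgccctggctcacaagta
Hbb-bt: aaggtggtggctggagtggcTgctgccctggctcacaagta
Of all 50-base stretches in the transcripts of Hba-a1, 72.3% also occurred in Hba-a2, and 89.3% of those of Hba-a2 occurred in Hba-a1. The shares were 53.2% for Hbb-bs and 58.3% for Hbb-bt. No member shared a 50-base stretch with a gene outside the 7. How reads that map to more than 1 gene were counted is not given in the sources used here, so the sum of each pair is firmer than its members. In GRCm38 with GENCODE M21, Hba-a1 lies at chr11:32283511-32284465 and Hba-a2 at chr11:32296489-32297298, both on the + strand. Hbb-bs lies at chr7:103826534-103828096 and Hbb-bt at chr7:103812524-103813996, both on the - strand. Alas2 lies at chrX:150547375-150570638 (+), Slc4a1 at chr11:102348824-102366203 (-) and Bpgm at chr6:34476207-34505613 (+). All are protein-coding genes.

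The libraries held 18767295 to 20888042 counts. The libraries of COPD mice fed the control diet were the farthest apart, with an SD of the log2 difference over genes of 0.798, against 0.394 to 0.469 in the other 3 groups. Levels are given as CPM, counts scaled to a common library total with TMM factors. At this depth the floor of 3 counts corresponded to 0.153 to 0.162 CPM. Lung identity was clear in every library, where Scgb1a1, the secretory protein of club cells, reached 11567 to 28837 CPM and Sftpc, a surfactant protein of alveolar type II cells, 9493 to 25891 CPM.

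The sum of the 4 hemoglobin chain genes differed 1.21-fold to 3.13-fold between the libraries of a group. In control mice fed the control diet it was 2695 CPM in the first library and 860 CPM in the second. On the TJ-41 diet control mice had 1041 and 1285 CPM. COPD mice had 1913 and 3720 CPM on the control diet, and 975 and 1179 CPM on the TJ-41 diet. The highest and the lowest sum of all 8 libraries were thus both found on the control diet, and the 4 TJ-41 libraries lay close together near the lower end. The 4 control-diet libraries spanned 4.33-fold and the 4 TJ-41 libraries 1.32-fold. As group means, the sums were 1778 ± 1298 CPM in control mice fed the control diet, 1163 ± 173 CPM in control mice fed TJ-41, 2817 ± 1278 CPM in COPD mice fed the control diet and 1077 ± 144 CPM in COPD mice fed TJ-41 (SD, n = 2 each). In rank order COPD mice fed the control diet came first, then control mice fed the control diet, control mice fed TJ-41 and COPD mice fed TJ-41. Of these neighbours, the first and the second, the second and the third, and the third and the fourth all had overlapping libraries. No test was made on the sum, since its members were chosen with earlier results known.

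**Figure D1:**
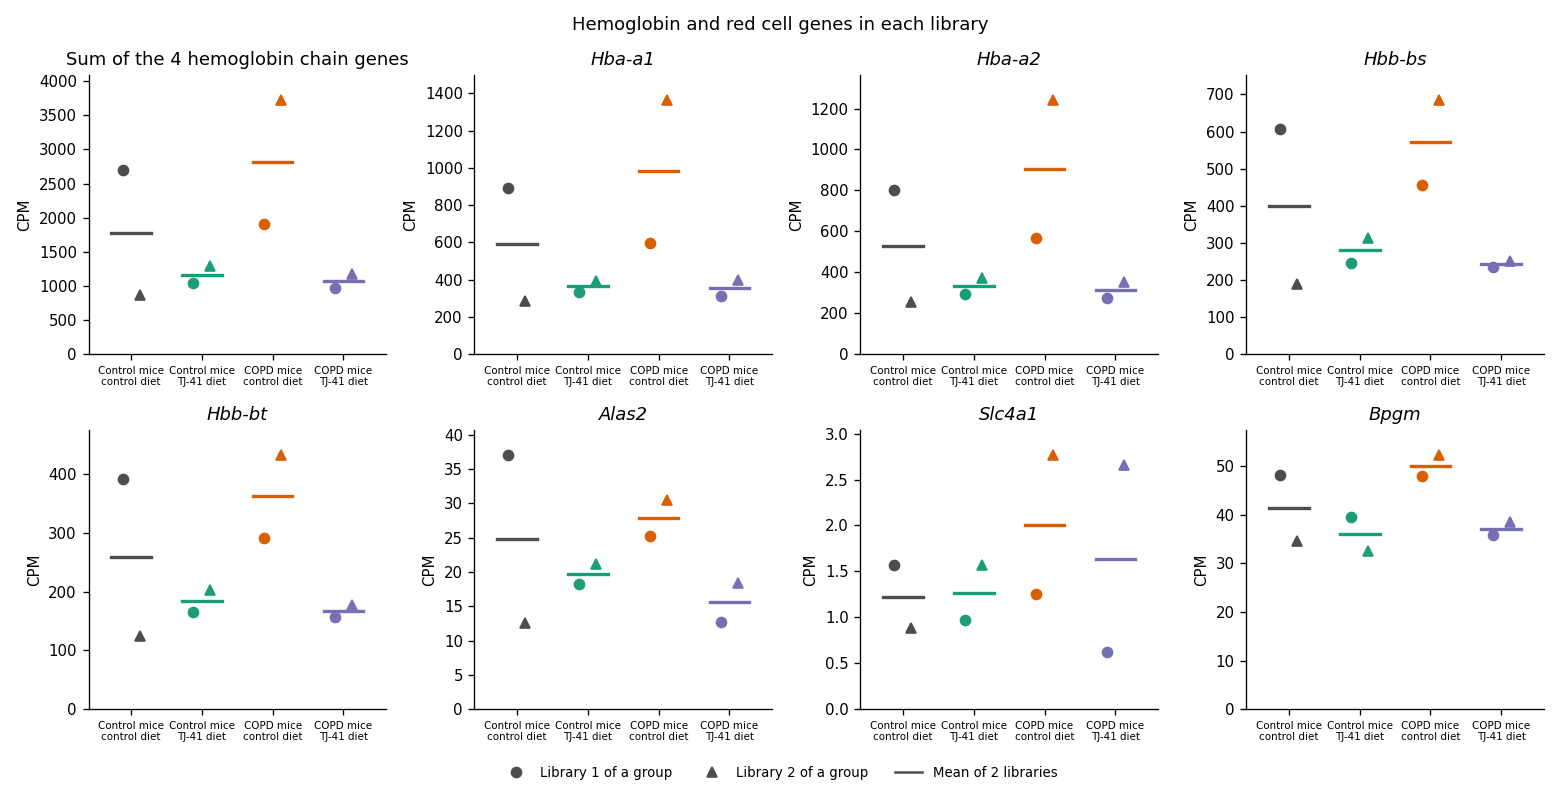
CPM (vertical axes, linear from 0) of the summed hemoglobin chain genes and of each of the 7 genes in the 4 groups, with 1 point per library and a bar at the mean of 2 libraries. In the globin and Alas2 panels, the control-diet libraries above the rest are the first of control mice and both of COPD mice. Alas2 peaks in the first library of control mice, and the globins in the second of COPD mice. The panel of Slc4a1 has another shape.

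As a share of all counts, the 4 genes made up 0.0866% of the lowest library (the second of control mice fed the control diet, 95% Wilson interval 0.0853% to 0.0879%) and 0.348% of the highest (the second of COPD mice fed the control diet, 0.345% to 0.350%). These intervals cover counting error only.

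The alpha chain genes had the highest counts of the 7. Hba-a1 was at 892 and 288 CPM in control mice fed the control diet, 336 and 395 CPM in control mice fed TJ-41, 598 and 1363 CPM in COPD mice fed the control diet, and 311 and 396 CPM in COPD mice fed TJ-41. Hba-a2 was at 804 and 257 CPM, 294 and 375 CPM, 566 and 1241 CPM, and 272 and 354 CPM in the same order. In both genes the 3 highest libraries were on the control diet, and the lowest was the second library of control mice fed the control diet. Within that group the libraries differed 3.10-fold for Hba-a1 and 3.13-fold for Hba-a2, and within COPD mice fed the control diet 2.28-fold and 2.19-fold. On the TJ-41 diet the libraries of a group differed 1.17-fold to 1.30-fold.

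The beta chain genes ranked the libraries as Hba-a2 did, at lower counts. Hbb-bs was at 608 and 190 CPM in control mice fed the control diet, 246 and 314 CPM in control mice fed TJ-41, 457 and 684 CPM in COPD mice fed the control diet, and 235 and 252 CPM in COPD mice fed TJ-41. Hbb-bt was at 392 and 125 CPM, 165 and 202 CPM, 292 and 432 CPM, and 157 and 176 CPM in the same order. The COPD libraries on the control diet differed 1.48-fold for Hbb-bt, against 2.28-fold for Hba-a1. These libraries overlapped with those of control mice fed the control diet, and did not overlap with those of COPD mice fed TJ-41.

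Within each pair the balance of counts hardly moved. Hba-a1 took 51.3% to 53.4% of the alpha counts over the 8 libraries and Hbb-bs 58.8% to 61.3% of the beta counts, a coefficient of variation of 1.48% and 1.33%, while the sum of the 4 genes varied by 59.5%. How reads shared within a pair were split in the counting is not known, and its part in this even balance was not tested. Between the chains the balance was less even. The ratio of alpha to beta counts was 1.70 and 1.73 in control mice fed the control diet, 1.54 and 1.49 in control mice fed TJ-41, 1.56 and 2.33 in COPD mice fed the control diet, and 1.48 and 1.75 in COPD mice fed TJ-41. The library with the most hemoglobin, the second of COPD mice fed the control diet, also had the highest alpha to beta ratio, and the other 7 libraries lay between 1.48 and 1.75. Alas2 per 1000 hemoglobin counts was lowest in that library, at 8.18, against 13.1 to 17.5 in the other 7. Most lung epithelial genes and the ferritin chain gene Fth1 were also highest in that library, with values given further on, and their part in its ratio was not tested.

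**Figure D2:**
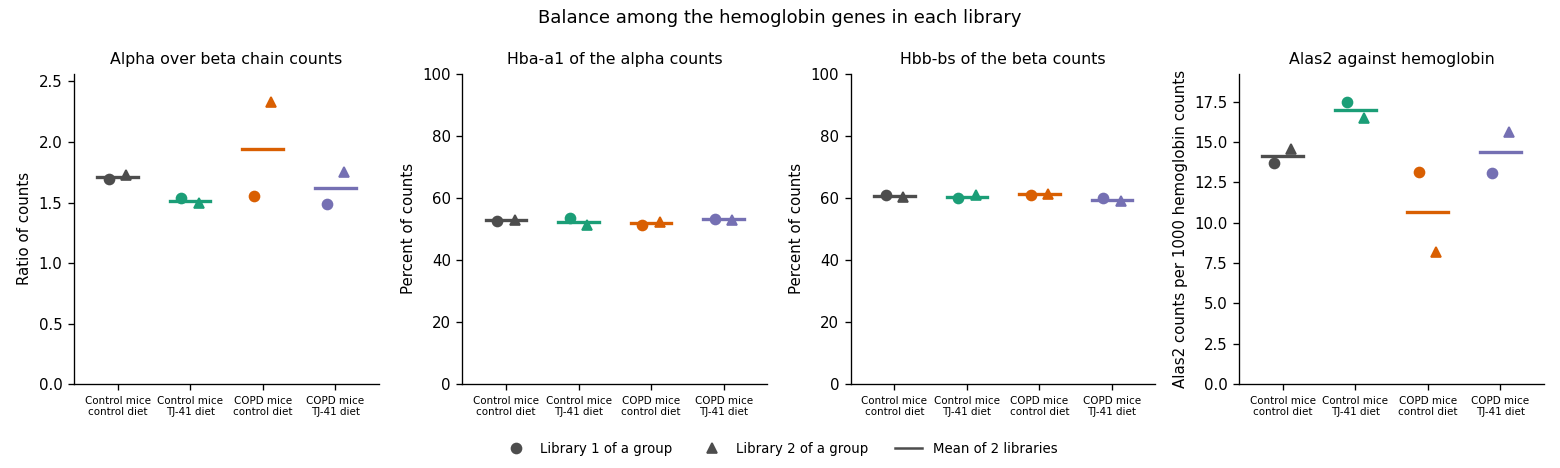
Ratio of alpha to beta chain counts, percent of alpha counts from Hba-a1, percent of beta counts from Hbb-bs, and Alas2 counts per 1000 hemoglobin counts, with 1 point per library in the 4 groups and a bar at the mean of 2 libraries. The percentages form flat rows near 52% and 60%, and the second library of COPD mice fed the control diet stands apart in the ratio (2.33) and in Alas2 (8.18).

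Alas2, the heme synthesis enzyme of red cells, was at 37.0 and 12.6 CPM in control mice fed the control diet, 18.2 and 21.2 CPM in control mice fed TJ-41, 25.2 and 30.4 CPM in COPD mice fed the control diet, and 12.8 and 18.4 CPM in COPD mice fed TJ-41. Its highest library was the first of control mice fed the control diet, not the library with the most globin. Over the 8 libraries its log2 CPM followed the mean log2 CPM of the 4 globin genes (Pearson r = 0.92, Spearman rho = 0.98, n = 8), and r was 0.91 without the 2 libraries with the most extreme globin values. For the globin mean, here and below, those 2 were the libraries with the most hemoglobin, so the lowest library stayed in. The points share the scaling to CPM and the 4 groups, so these coefficients are a description and carry no test.

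Bpgm, the enzyme of 2,3-bisphosphoglycerate synthesis, was far steadier. It was at 48.1 and 34.6 CPM in control mice fed the control diet, 39.5 and 32.5 CPM in control mice fed TJ-41, 47.9 and 52.2 CPM in COPD mice fed the control diet, and 35.7 and 38.6 CPM in COPD mice fed TJ-41. The highest library had 1.61-fold the lowest, against 4.73-fold for Hba-a1, and the 3 libraries with the most globin were also the 3 with the most Bpgm. The correlation with the globin mean was r = 0.88, rho = 0.74 (n = 8), and r = 0.70 without the 2 most extreme libraries. Per 1000 hemoglobin counts, Bpgm ranged from 14.0 in the library with the most hemoglobin to 40.2 in the library with the least.

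Slc4a1, the band 3 anion exchanger, was counted only 12 to 54 times per library. It was at 1.57 and 0.882 CPM in control mice fed the control diet, 0.972 and 1.57 CPM in control mice fed TJ-41, 1.25 and 2.77 CPM in COPD mice fed the control diet, and 0.625 and 2.66 CPM in COPD mice fed TJ-41. Its second-highest library was thus the second of COPD mice fed TJ-41, where hemoglobin was low. The correlation with the globin mean was r = 0.63, rho = 0.81 (n = 8), and fell to r = 0.39 without the 2 most extreme libraries.

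**Figure D3:**
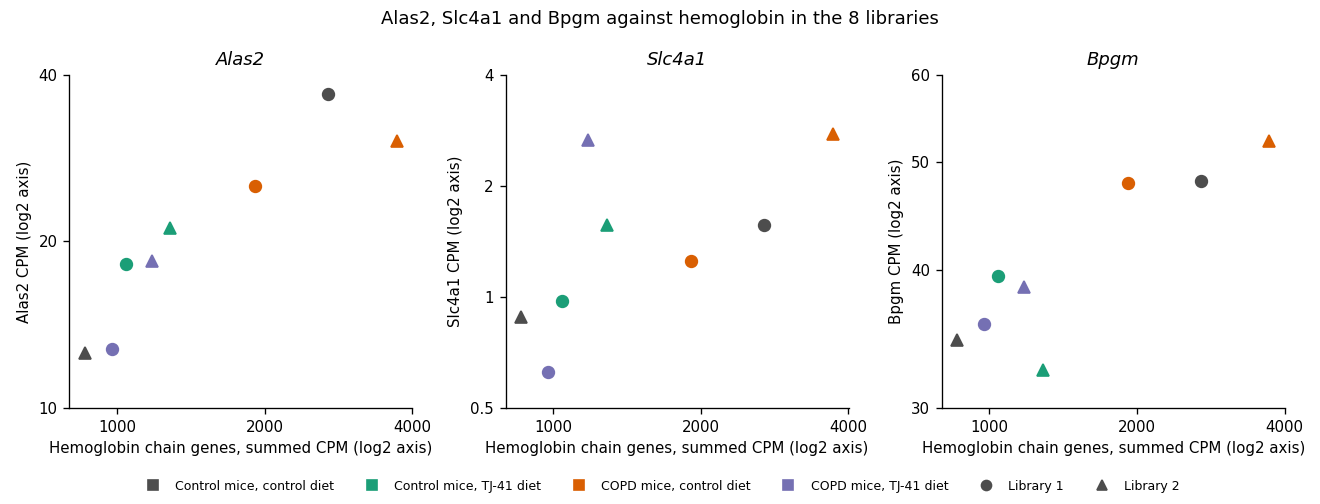
CPM of Alas2, Slc4a1 and Bpgm (vertical log2 axes) against the summed CPM of the hemoglobin chain genes (horizontal log2 axes), with 1 point for each of the 8 libraries, coloured by group. Alas2 climbs with hemoglobin, Bpgm climbs over a narrow range of 32.5 to 52.2 CPM, and Slc4a1 has 1 library of COPD mice fed TJ-41, at 2.66 CPM, far above others of like hemoglobin.

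Scaled by summed exon length, the mean levels over the 8 libraries were 780 CPM per kb for Hba-a2, 705 for Hba-a1, 486 for Hbb-bs, 345 for Hbb-bt, 11.5 for Bpgm, 9.14 for Alas2 and 0.314 for Slc4a1. The ranges of neighbours in this order overlapped, except at 2 steps: Hbb-bt (178 to 615 CPM per kb) lay above Bpgm (9.05 to 14.6) in every library, and so did Alas2 (5.22 to 15.4) above Slc4a1 (0.128 to 0.565). Of the 7 members, 6 were among the more variable genes of the data: the SD of log2 CPM within groups was 0.73 for Hba-a1 and Hba-a2, 0.64 for Hbb-bs, 0.63 for Hbb-bt, 0.59 for Alas2 and 0.85 for Slc4a1. At least 90.1% of the 20546 genes tested had a smaller within-group SD than each of these 6, and the median gene had 0.264. Bpgm had 0.20, with 34.4% of genes below it.

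The first question was whether red cell genes differed between COPD mice and control mice fed the control diet. All 7 had higher means in COPD mice, and none differed beyond the spread between libraries. The log2 fold changes were 0.73 ± 0.50 (SE) for Hba-a1, 0.77 ± 0.50 for Hba-a2, 0.52 ± 0.44 for Hbb-bs, 0.49 ± 0.43 for Hbb-bt, 0.17 ± 0.42 for Alas2, 0.71 ± 0.67 for Slc4a1 and 0.28 ± 0.20 for Bpgm. In edgeR's quasi-likelihood fit, after Benjamini-Hochberg adjustment across the genes tested, 0 of 7 were called as a DEG (adjusted p below 0.05 and more than 1 on the log2 scale in either direction), the smallest adjusted p being 0.815. Over all genes 0.122% were called. None of the 7 had an unadjusted p below 0.05 and DESeq2 called none. The libraries overlapped for all 7 genes, where 27.6% of all genes did not overlap. Without the second control library on the control diet, the changes of Hbb-bs (-0.095), Hbb-bt (-0.12) and Alas2 (-0.42) turned negative. Without the first control library, the log2 fold change of Hba-a1 was 1.77.

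The same comparison on the TJ-41 diet gave values close to 0 for the globins. The log2 fold changes of COPD mice against control mice were -0.051 ± 0.50 for Hba-a1, -0.094 ± 0.50 for Hba-a2, -0.20 ± 0.44 for Hbb-bs and -0.14 ± 0.43 for Hbb-bt. For the other members they were -0.34 ± 0.42 for Alas2, 0.37 ± 0.67 for Slc4a1 and 0.046 ± 0.20 for Bpgm. All libraries overlapped, against 56.5% of all genes whose libraries did not overlap. The edgeR test called 0 of the 7, with a smallest adjusted p of 0.835 after Benjamini-Hochberg adjustment, against 0.0779% of all genes. No member had an unadjusted p below 0.05 and DESeq2 called none. With both diets in 1 fit, the log2 fold changes were 0.34 ± 0.35 for Hba-a1, 0.34 ± 0.35 for Hba-a2, 0.16 ± 0.31 for Hbb-bs, 0.18 ± 0.31 for Hbb-bt, -0.085 ± 0.30 for Alas2, 0.54 ± 0.47 for Slc4a1 and 0.16 ± 0.14 for Bpgm. None of these was called or had an unadjusted p below 0.05, with edgeR adjusted p of 0.698 or more after Benjamini-Hochberg adjustment, against 0.443% of all genes.

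The next question was whether the TJ-41 diet changed the red cell genes in control mice. The globins were lower on average, by -0.69 ± 0.50 for Hba-a1, -0.67 ± 0.50 for Hba-a2, -0.51 ± 0.44 for Hbb-bs and -0.49 ± 0.43 for Hbb-bt on the log2 scale. Alas2 was at -0.33 ± 0.42, Slc4a1 at 0.049 ± 0.69 and Bpgm at -0.20 ± 0.20. The TJ-41 libraries lay between the 2 control-diet libraries for the 4 globins, Alas2 and Slc4a1 and overlapped with them for Bpgm, where 38.2% of all genes did not overlap. In the edgeR fit 0 of 7 were called, the smallest adjusted p after Benjamini-Hochberg adjustment being 0.996, and 0% of all genes were called. At an unadjusted p below 0.05 there were 0 members, and DESeq2 called none. The direction rested on 1 library. Without the first control library on the control diet, the globins were higher on the TJ-41 diet, by 0.34 for Hba-a1 to 0.56 for Hbb-bs.

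In COPD mice, hemoglobin was lower in both TJ-41 libraries than in either control-diet library. Both TJ-41 libraries lay below both control-diet libraries for 6 of 7 members, the 4 globins, Alas2 and Bpgm, and the libraries overlapped for Slc4a1. Over all genes, 14.9% had both TJ-41 libraries below both control-diet libraries. The log2 fold changes were -1.47 ± 0.51 for Hba-a1, -1.53 ± 0.51 for Hba-a2, -1.23 ± 0.45 for Hbb-bs and -1.12 ± 0.44 for Hbb-bt. Alas2 was at -0.83 ± 0.42, Bpgm at -0.43 ± 0.20 and Slc4a1 at -0.29 ± 0.65. None passed the test: 0 of 7 were called by edgeR, all with an adjusted p of 0.991 after Benjamini-Hochberg adjustment, against 0.00487% of all genes. At an unadjusted p below 0.05 in the edgeR fit there were 4 members, the globins, with p from 0.0147 for Hba-a2 to 0.0307 for Hbb-bt, and DESeq2 called none. Over all genes, 842 had such an unadjusted p.

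The size of the change in this comparison depended on which library of COPD mice fed the control diet was left out. Without the first library, Hba-a1 was at -1.95 and Hba-a2 at -1.98. In that fit the library left alone in its group is assumed to vary like the other groups, and 728 genes were called where 1 was called with all libraries. Without the second library of the group, the one with the most hemoglobin, Hba-a1 was at -0.76 and Hba-a2 at -0.86, and no member was called.

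A test of whether the diet effect differed between COPD mice and control mice also called 0 of 7, and 0% of all genes. The differences of the 2 diet effects on the log2 scale were -0.78 ± 0.71 for Hba-a1, -0.86 ± 0.71 for Hba-a2, -0.72 ± 0.63 for Hbb-bs and -0.62 ± 0.61 for Hbb-bt. For Alas2 the difference was -0.50 ± 0.59, for Slc4a1 -0.34 ± 0.95 and for Bpgm -0.23 ± 0.28, all with an edgeR adjusted p of 0.999 after Benjamini-Hochberg adjustment. No member had an unadjusted p below 0.05 and DESeq2 called none. With both models in 1 fit, TJ-41 against control diet gave -1.08 ± 0.36 for Hba-a1, -1.10 ± 0.36 for Hba-a2, -0.87 ± 0.31 for Hbb-bs, -0.81 ± 0.31 for Hbb-bt, -0.58 ± 0.30 for Alas2, -0.12 ± 0.47 for Slc4a1 and -0.32 ± 0.14 for Bpgm. The smallest adjusted p in this edgeR fit was 0.973 after Benjamini-Hochberg adjustment, so 0 of 7 were called, against 0% of all genes. The 4 globins had unadjusted p of 0.0129 to 0.0276 in the edgeR fit, and no other member was below 0.05. Over all 20546 genes tested, 509 had such an unadjusted p in this fit. The joined groups were fitted with edgeR only.

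**Figure D4:**
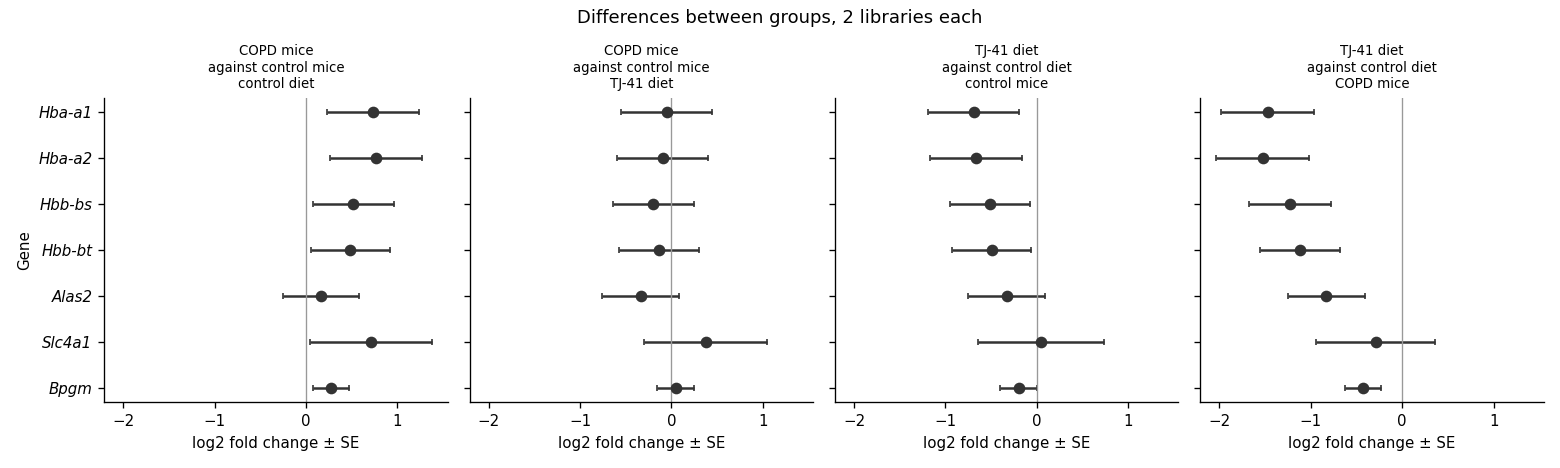
Log2 fold changes (horizontal axis) with standard errors (bars) of the 7 genes in the 4 comparisons between groups of 2 libraries, from the edgeR fit over all genes. The globins lie farthest from 0 for TJ-41 against control diet in COPD mice (-1.12 to -1.53), and close to 0 for COPD mice against control mice fed TJ-41, and none of the values passed the test after adjustment.

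Other genes of red cells were mostly low or not specific to them. Embryonic and minor globin genes (Hbb-bh1, Hbb-y, Hbq1a, Hbq1b, Hba-x and others) summed to 0 to 1.08 CPM, and 0 of the 7 in the files passed the filter on low counts. Hbb-bh1 was the most abundant of them, at 0 to 0.410 CPM. Among genes of the red cell membrane and its skeleton, 11 of 17 were tested. Their most abundant members, Epb41 (163 to 220 CPM), Tmod1 (34.9 to 51.6 CPM) and Gypc (21.2 to 30.9 CPM), are made in many cell types, and the summed list moved only 1.18-fold over the libraries. Its correlation with the globin mean was r = -0.087 (rho = -0.45, n = 8), and r = 0.85 without the 2 most extreme libraries, with a median r of 0.27 over its genes.

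Of the transcription and maturation genes of red cell precursors, the most specific had few counts. Klf1, the activator of adult beta globin, was counted 19 times in all, at 0.0521 to 0.208 CPM, and Gata1 was at 0.154 to 0.778 CPM. Of the 20 genes of that list 15 were tested, led by Bnip3l (121 to 174 CPM, mitochondrial removal), Tfrc (62.9 to 124 CPM, iron uptake) and Xpo7 (70.1 to 95.7 CPM, nuclear export), all of which other cells also use. The summed list had r = 0.31 with the globin mean (rho = 0.52, n = 8), and r = 0.61 without the 2 most extreme libraries, with a median r of -0.082 over its genes. Heme synthesis was led by Alas1, the enzyme form of other tissues, at 197 to 385 CPM, followed by Fech (53.2 to 65.7 CPM) and Ppox (39.4 to 49.7 CPM). The 12 heme genes, all tested, had a summed r of 0.60 (rho = 0.38, n = 8), and 0.30 without the 2 most extreme libraries.

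None of these genes was called in any comparison. On the control diet the median log2 fold change of COPD mice against control mice was 0.12 over 11 membrane genes, 0.027 over 15 precursor genes and 0.028 over 12 heme genes, beside 0.62 over the 4 globins and 0.0073 over all genes. For TJ-41 against control diet in COPD mice the medians were -0.10, -0.083 and -0.0059, beside -1.35 for the 4 globins and -0.015 over all genes. In numbers of genes below 0, this comparison had 7 of 11 membrane genes, 9 of 15 precursor genes, 6 of 12 heme genes and all 4 globins, with 0 called by edgeR in each list. At an unadjusted p below 0.05 in that fit there were Zfpm1, the GATA1 partner FOG1, of the precursor list (higher), no heme gene and the 4 globins (lower).

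Genes that clear free hemoglobin and iron had another order of libraries. The list was led by Fth1, a ferritin chain that stores iron (664 to 2014 CPM), Hp, haptoglobin, which binds free hemoglobin (336 to 647 CPM), and Lrp1, the receptor for heme bound to hemopexin (279 to 534 CPM). Their sums had r = 0.51 with the globin mean (rho = 0.14, n = 8), and r = -0.69 without the 2 most extreme libraries. Fth1 was highest in the second library of COPD mice fed the control diet, and Lrp1 was lowest in the first library of control mice fed the control diet. Of 13 genes tested, none was called. For TJ-41 against control diet, 9 of 13 were below 0 in COPD mice (median -0.19) and 11 of 13 in control mice (median -0.30). For COPD against control mice, 11 of 13 were above 0 on TJ-41 (median 0.41) and 7 of 13 on the control diet (median 0.090). Hypoxia response genes, 12 tested, summed to 2503 to 3502 CPM with r = 0.0074 (rho = -0.12, n = 8), and r = -0.26 without the 2 most extreme libraries, and none was called.

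Markers of other blood and lung cells differed from hemoglobin in their order of libraries. Platelet genes, which would also come with blood, summed to 555 and 1006 CPM in control mice fed the control diet, 333 and 752 CPM in control mice fed TJ-41, 320.5 and 448 CPM in COPD mice fed the control diet, and 215 and 360 CPM in COPD mice fed TJ-41. Most of this was Thbs1 (120 to 890 CPM), which other cells also make, followed by Itgb3 (37.7 to 55.9 CPM) and Clec1b (7.17 to 20.8 CPM). All 14 were tested and 3 of 14 had a positive correlation with the globin mean, and the sum had r = -0.012 (rho = 0.048, n = 8) and r = -0.26 without the 2 most extreme libraries. Pf4, a chemokine of platelet granules, was at 6.53 to 11.5 CPM and had r = 0.56 with the globin mean.

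The library with the most hemoglobin was also the highest for most lung epithelial genes and the lowest for most neutrophil genes. The sum of 10 lung epithelial genes, led by Scgb1a1, Sftpc and Sftpa1 (3349 to 4834 CPM), was 69130 CPM in the second library of COPD mice fed the control diet, against 32997 to 47373 CPM in the other 7, and 8 of the 10 genes, all but Sftpb and Hopx, were highest there. Of the 12 neutrophil genes tested, 7 were lowest in that library and 3 were highest there (Lcn2, Cd177 and Ltf). S100a9, a calcium-binding protein of neutrophils, was at 26.2 CPM there and at up to 144 CPM in the others, and Csf3r, the G-CSF receptor, was at 15.8 CPM there and at up to 74.8 CPM in the others. Lcn2, which lung epithelium also makes, was at 889 CPM there, against 92.3 to 318 CPM in the other 7, and it made up most of the neutrophil sum, which was 1024 CPM there and 286 to 660 CPM in the others. The defining marker Ly6g, at 0.0540 to 1.02 CPM, and 7 of the 12 tested genes were highest in the second library of COPD mice fed TJ-41. Endothelial genes, led by Cdh5 (698 to 1060 CPM), Pecam1 (757 to 941 CPM) and Kdr (354 to 656 CPM), moved little, from 3761 to 4682 CPM in sum. Against the globin mean, the sums had r = 0.67 for epithelium (rho = 0.31), 0.50 for neutrophils (rho = 0.29) and -0.28 for endothelium (rho = -0.24), each over 8 libraries. Without the 2 most extreme libraries r was -0.73, 0.14 and -0.54. Gene by gene, the median r was 0.60 for epithelium (10 of 10 genes above 0), -0.33 for neutrophils (3 of 12 above 0) and 0.16 for endothelium (5 of 10 above 0), so the sums of the neutrophil and endothelial lists had the opposite sign to their median gene. None of the genes of these lists was called. The part of these cells in the hemoglobin values was not tested.

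**Figure D5:**
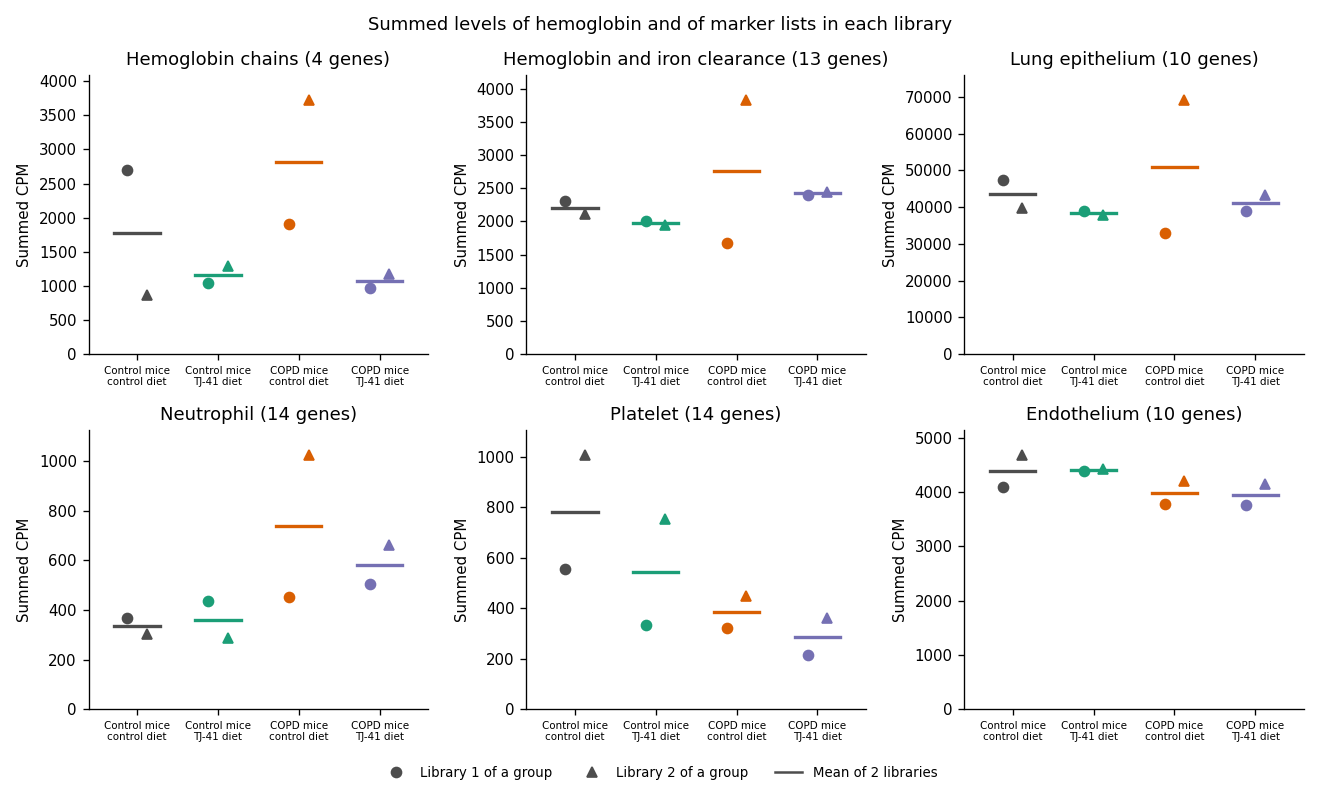
Summed CPM (vertical axes, linear from 0) of the hemoglobin chain genes, of hemoglobin and iron clearance genes, and of marker genes of lung epithelium, neutrophils, platelets and endothelium, with 1 point per library in the 4 groups and a bar at the mean of 2 libraries. The second library of COPD mice fed the control diet is the highest for hemoglobin (3720), clearance (3827), epithelium (69130) and the neutrophil sum (1024, of which Lcn2 is 889), and platelet genes peak in the second library of control mice fed the control diet (1006), where hemoglobin is lowest.

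The genes whose log2 CPM was most like the mean of the 4 globins over the 8 libraries were not red cell genes. Of 20539 other genes tested, 147 had a Pearson r of 0.9 or more and 142 an r of -0.9 or less, with a median of -0.019. The 10 highest were Gm22513, Mrpl13, Gm7206, Ppa2, Lsm8, Gm5586, Rer1, Smt3h2-ps4, Dyx1c1 and Dynlt1c, with r from 0.96 to 0.99 (n = 8). Mrpl13, a protein of the mitochondrial ribosome, was at 35.5 and 25.5 CPM in control mice fed the control diet, 28.3 and 27.2 CPM in control mice fed TJ-41, 34.0 and 40.6 CPM in COPD mice fed the control diet, and 27.0 and 28.6 CPM in COPD mice fed TJ-41. Its libraries thus kept nearly the order of hemoglobin (rho = 0.93) over a far smaller range. Ppa2, a mitochondrial pyrophosphatase, ranged from 35.0 to 53.1 CPM, and Gm22513 and Dyx1c1 never passed 0.922 CPM. Alas2, with r = 0.92, ranked below these 10. With 8 libraries and nearly as many genes at r of -0.9 or less as at 0.9 or more, these coefficients describe likeness only.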

How the data were processed

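The deposited files hold, per library, the raw read counts of each Ensembl gene, which the authors did not normalize. The submitters' processing notes name HISAT2, edgeR and mm10 (GRCm38), without versions, and the paper's methods name CLC Genomics Workbench. The counting program, annotation release, strand setting and treatment of multi-mapped reads are not given in the sources used here. Groups were taken from the sample labels, which spell the drug TJ41 in the title and TJ4 in the treatment. Of 52636 identifiers, 52489 were found in GENCODE M21, which gave symbols and positions. Promoters came from RefSeq (GRCm38.p6), with entries for 6 of the 7 members.

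Counts were analysed with edgeR 4.0.16 (limma 3.58.1, R 4.3.3): filterByExpr (minimum count 10, minimum total 15), TMM, and the quasi-likelihood test on 4 group means in 1 fit (4 residual degrees of freedom), with Benjamini-Hochberg adjustment over the 20546 genes kept. Genes were called at a false discovery rate below 0.05 and a log2 fold change beyond 1. Log2 CPM for correlations used a prior count of 2. DESeq2 1.42.0 was an alternative. Both tools were tested on simulated counts. The members and gene lists were chosen with earlier results of these data known. Named genes were all members, the 3 genes of highest mean CPM in each list, any called list gene and the 10 genes most correlated with the globin mean. Genes of a list named beyond these (Hbb-y, Hba-x, Klf1, Gata1, Zfpm1, Pf4, Ly6g, Cd177, Ltf, Sftpb, Hopx) fell outside this rule and were named with their values already seen. Depth was 18767295 to 20888042 counts per library, and no library was a copy of another. Replicate numbers were shared between groups by label only, and the deviations of libraries with the same number correlated between groups at r = -0.23 to 0.11, so the libraries were not treated as paired. Ahsp, a gene of the globin list, was not analysed here, and some single genes of the membrane list are not reported here.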

Additional observations from a re-analysis of the deposited data

How the results depend on the processing

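With all 8 libraries, 0 members were called with DESeq2, with RLE factors, with plain library sizes, with library sizes that leave out hemoglobin, with looser or stricter filters on low counts, at the false discovery rate alone, with a replicate block, with the compared groups alone, and with both diets or both models joined. Leaving out 1 library at a time gave 0 to 2 members called for TJ-41 against control diet in COPD mice and 0 in the other comparisons. Most directions were kept, and the changes of sign came with left-out libraries, joined groups or the block. For COPD against control mice without TJ-41, the log2 values ran from -0.095 to 1.59 for Hbb-bs, -0.12 to 1.53 for Hbb-bt and -0.42 to 1.15 for Alas2. For COPD against control mice fed TJ-41, the log2 values ran from -0.23 to 0.12 for Hba-a1, -0.29 to 0.090 for Hba-a2, -0.27 to 0.015 for Hbb-bt, -1.004 to 1.07 for Slc4a1 and -0.091 to 0.20 for Bpgm. For TJ-41 against control diet in control mice, the log2 values ran from -1.29 to 0.34 for Hba-a1, -1.27 to 0.38 for Hba-a2, -1.13 to 0.56 for Hbb-bs, -1.10 to 0.55 for Hbb-bt, -0.92 to 0.65 for Alas2, -0.33 to 0.52 for Slc4a1 and -0.42 to 0.055 for Bpgm. For TJ-41 against control diet in COPD mice, the log2 values ran from -1.67 to 0.40 for Slc4a1. For the difference of the 2 diet effects, the log2 values ran from -1.48 to 0.094 for Alas2, -1.71 to 0.36 for Slc4a1 and -0.48 to 0.00015 for Bpgm. With both diets joined, COPD against control mice was at -0.085 for Alas2, 0.34 for Hba-a1 and 0.34 for Hba-a2, 0.16 for Hbb-bs and 0.18 for Hbb-bt, and with both models joined TJ-41 against control diet was at -0.12 for Slc4a1. With the replicate block, Slc4a1 was at -0.083 for TJ-41 against control diet in control mice, and the block changed no other direction and no call. The causes were not tested.

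The number of genes called over the whole table varied more than that of the members. On the control diet COPD against control mice gave 25 genes with edgeR, 172 with DESeq2 and 147 with every gene that had a count. Fed TJ-41, the numbers were 16, 121 and 89, and 248 with the 2 groups alone. With both diets joined 91 genes were called. For TJ-41 against control diet, edgeR called 0 in control mice and 1 in COPD mice, and DESeq2 called 11 and 10. The difference of the diet effects gave 0 with edgeR and 17 with DESeq2. Leaving out 1 library at a time gave 3 to 1343 genes for COPD against control mice without TJ-41, 2 to 168 with TJ-41, and 0 to 728 for TJ-41 against control diet in COPD mice. The values 1343 and 728 were both reached without the first library of COPD mice fed the control diet. Counts were low for Slc4a1, with 12 to 54 per library, and for the embryonic globins, which lay near the floor of 3 counts. Between the 2 libraries of a group the spread was wide for the globins and for Slc4a1. The within-group SD of log2 CPM of Slc4a1 was 0.85, and the part of its low counts in that spread was not tested.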
